A study of Homo sapiens with 6 samples.

Results

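Replication-dependent histone genes supply the histone proteins that package newly made DNA. They were taken here as the protein-coding genes H1-1 to H1-6 and all genes named H2AC, H2BC, H3C or H4C on chromosomes 1 and 6, which gave 68 genes. Of these, 64 had a matching identifier among the 58051 genes of the count files, and 57 carried at least 10 counts summed over the 6 libraries and were tested. The counts come from A172, an established human glioblastoma cell line, in which stable lines were made by lentiviral transduction of GFP, the control, or of RBFOX1, an RNA-binding protein that is abundant in neurons and muscle. Each condition had 3 biological replicates, and total RNA was depleted of ribosomal RNA before stranded paired-end sequencing. All 6 libraries therefore share the parental line and exposure to lentivirus and polybrene. Whether a line was a clone or a pool, and which promoter drove the plasmid, is not given in the sources used here. The comparison of RBFOX1 with GFP lines asks how the transcriptome of a glioblastoma line differs when it expresses this protein.

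Histones H2A, H2B, H3 and H4 form the core of the nucleosome, and the linker histone H1 binds the DNA that enters and leaves it. The replication-dependent genes are transcribed mainly in S phase, lie in clusters, usually have no intron, and give mRNAs that end after a conserved stem-loop bound by SLBP (stem-loop binding protein) in place of a poly(A) tail. Libraries made from total RNA keep such mRNAs, which a poly(A) selection would largely lose.

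In RBFOX1 cells, 55 of the 57 tested histone genes were higher than in GFP cells and 0 were lower (adjusted p under 0.05 in edgeR). Among all 20536 genes tested, 46.6% were called, 23.7% higher and 22.9% lower. No tested histone gene had a negative fitted log2 fold change, so the count of lower genes is also 0 at an unadjusted p under 0.05, and it was 0 with DESeq2 and limma-voom. The median fitted log2 fold change of the tested histone genes was 1.24, a fold of 2.36, beside a median of 0.0051 over all genes tested. With genes near 0 counts in GFP cells set to their lower bound, the histone median was 1.20. Differences ran from a log2 fold change of 0.44 for H2BC4 to 2.42 for H2BC14 among the 48 genes whose normalized count averaged at least 50, all 48 of which were higher. Linker histone and H3 genes had the larger class medians and H2A and H4 genes the smaller.

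The stem-loops below show the 3′ end that these genes have in common and how it varies between classes. A search for the 16-base histone stem-loop, which starts with GGC, holds CTTTT and AG at fixed places between 3 free positions and ends with GCC, within 300 bases past the stop codon of each canonical transcript (GENCODE release 44, GRCh38) found it in 64 of the 68 genes, 22 to 67 bases past the stop codon. Capitals mark the 16 bases of the motif, and 5 flanking bases on each side are in lower case, all written 5′ to 3′ on the strand of the gene. The genes shown were picked from those described below so that each class has genes with a larger and a smaller difference, and H2AC11 was added because its stem is the only unequal one found.
H1-2: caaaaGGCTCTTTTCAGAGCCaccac
H1-3: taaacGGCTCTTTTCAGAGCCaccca
H1-4: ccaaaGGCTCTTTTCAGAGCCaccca
H1-6: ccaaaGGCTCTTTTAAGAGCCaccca
H2AC6: ccaaaGGCTCTTTTCAGAGCCcccct
H2AC12: acaaaGGCTCTTTTCAGAGCCattct
H2AC11: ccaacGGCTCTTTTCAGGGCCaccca
H2BC4: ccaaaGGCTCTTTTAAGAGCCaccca
H2BC14: ccaaaGGCTCTTTTCAGAGCCgtcca
H3C7: ccaaaGGCTCTTTTCAGAGCCaccaa
H3C12: ccaaaGGCTCTTTTCAGAGCCactta
H4C3: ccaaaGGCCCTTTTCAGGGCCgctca
H4C5: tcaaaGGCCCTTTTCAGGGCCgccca

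Class H4 stood apart in these letters, since all 13 stem-loops found in H4 genes paired GGCCC with GGGCC. The other 51 did not: 50 paired GGCTC with GAGCC and 1, that of H2AC11, began with GGCTC and ended with GGGCC. H1-6 and H2BC4 have an identical printed stretch, while H1-6 had a large and H2BC4 the smallest fitted log2 fold change called. No match was found for H3C6, H2BC10, H2AC15 and H4C13, whose fitted log2 fold changes of 0.90, 2.27, 1.36 and 1.15 lay within the range of the other genes. The windows printed lie on GRCh38 at chr6:26055739-26055764 for H1-2, chr6:26234212-26234237 for H1-3, chr6:26107412-26107437 for H1-6, chr6:26123467-26123492 for H2BC4, chr6:27890315-27890340 for H3C12 and chr6:26250140-26250165 for H3C7, all on the minus strand. Those on the plus strand lie at chr6:26157090-26157115 for H1-4, chr6:26124664-26124689 for H2AC6, chr6:27147541-27147566 for H2AC12, chr6:27133510-27133535 for H2AC11, chr6:27815464-27815489 for H2BC14, chr6:26104312-26104337 for H4C3 and chr6:26204996-26205021 for H4C5. The sequence TGCATG, which RBFOX proteins bind in RNA as UGCAUG, was absent from all 68 canonical histone transcripts (386 to 2224 nucleotides), and was present in 131 of 1074 (12.2%) other protein-coding canonical transcripts of 386 to 797 nucleotides. Such letters say nothing about where RBFOX1 bound. Translated from the annotation, the H3 genes encode 2 distinct proteins and the H4 genes 2, with 10 of 13 H3 genes and 13 of 14 H4 genes sharing the same protein. H2A genes encode 11 distinct proteins, H2B genes 14 and the H1 genes 6, so that counts of H3 and H4 genes add up to nearly the same product and those of H1 genes do not.

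Gene counts per library ranged from 7433414 to 23249221, with a biological coefficient of variation of 0.0542 across the fit. RBFOX1 (ENSG00000078328) had 4, 0 and 1 counts in the GFP libraries and 10276, 16467 and 21451 in the RBFOX1 libraries, which matches the labels. Of 7 glioblastoma markers, 6 were tested, 2 were higher and 3 were lower, against 23.7% and 22.9% of all genes tested. VIM, CD44 and NES were abundant, while GFAP had 1 to 4 counts in every library and S100B 0 to 2. Reads that fit more than 1 gene made up 8.89 to 9.35% of read pairs in GFP and 6.89 to 7.94% in RBFOX1 libraries, and the part of this difference in the histone counts was not tested. Levels are given below as CPM, counts per 1000000 gene counts after TMM scaling. Summed over the 7 glioblastoma markers, mean CPM was 5545 in GFP and 3656 in RBFOX1 libraries. P-values set the difference between conditions against the spread among the libraries within each condition, and cover these 6 libraries only.

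Summed over the 64 measured genes, histone CPM was 2352, 2180 and 2219 in the GFP libraries and 4274, 4906 and 4665 in the RBFOX1 libraries. The mean rose from 2250 ± 90.5 to 4615 ± 319 (SD, n = 3 each), a ratio of 2.05, and the groups did not overlap. Histone reads made up 0.231, 0.214 and 0.218% of gene counts in the GFP libraries and 0.440, 0.494 and 0.475% in the RBFOX1 libraries. In bulk RNA, a larger share of cells in S phase and more histone mRNA per cell cannot be told apart. All 3 RBFOX1 libraries lay above all 3 GFP libraries for 55 of the 57 tested genes, against 26.9% of all genes tested. On GFP counts alone, 55 of the 57 reached the minimum for testing, and 53 of those were higher. Both a call and at least a doubling of the fitted level held for 37 of the 57, against 8.23% of all genes tested.

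**Figure D1:**
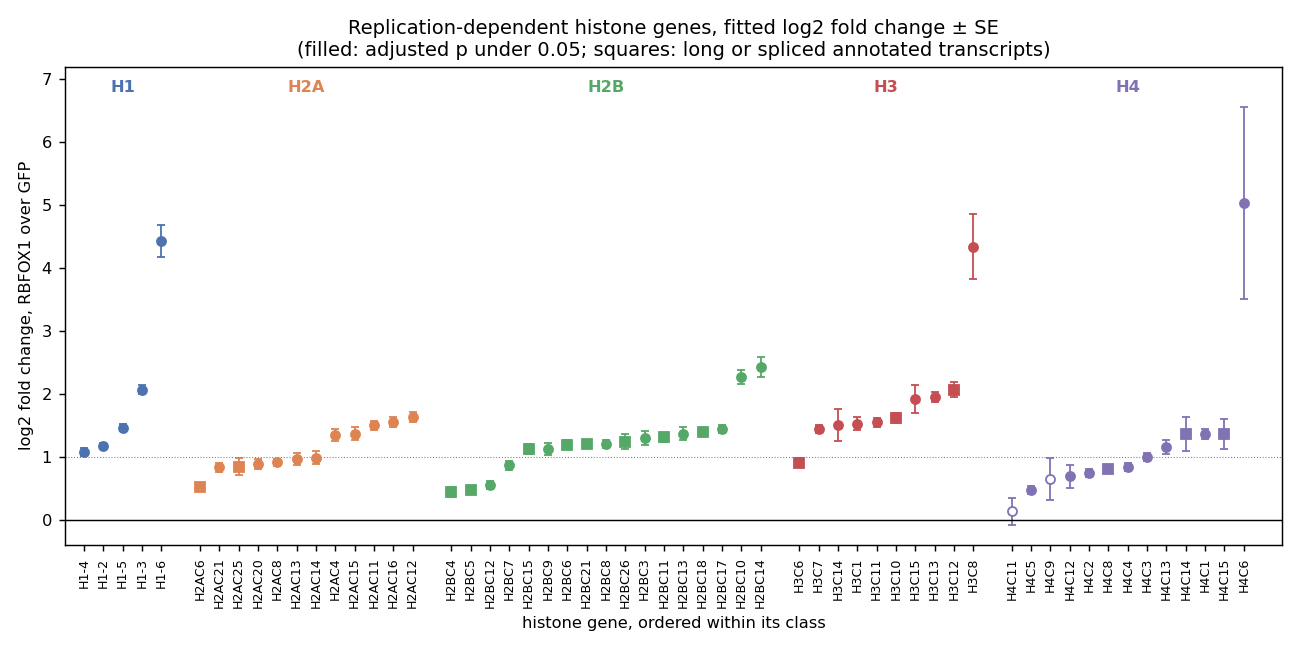
Fitted log2 fold change (RBFOX1 over GFP, vertical axis) with its standard error for each of the 57 tested histone genes, ordered within classes H1, H2A, H2B, H3 and H4. Filled symbols are genes with an adjusted p under 0.05 and squares are genes with long or spliced annotated transcripts; 55 of the 57 symbols are filled, all above 0, and H1-6, H3C8 and H4C6 lie above 4 from few GFP counts.

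Among linker histones, the 5 tested genes all rose. H1-2 (ENSG00000187837), a main somatic linker histone, had 180, 166 and 171 CPM in GFP and 359, 403 and 402 CPM in RBFOX1 libraries. Its log2 fold change was 1.17 (SE 0.0541, adjusted p = 5.22e-13 from edgeR). H1-4, the other abundant somatic form, went from 166, 151 and 148 CPM to 296, 348 and 337 CPM, a log2 fold change of 1.08 (SE 0.0609). Per kilobase of annotated exon, these were also the linker histones with the most reads, with 236 (H1-2) and 197 (H1-4) CPM per kilobase in GFP cells.

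H1-5 had 84.7, 78.5 and 82.4 CPM in GFP against 204, 244 and 229 CPM in RBFOX1 libraries, a log2 fold change of 1.46 (SE 0.0613). H1-3 went from 31.2, 34.9 and 30.4 CPM to 130, 147 and 125 CPM, a log2 fold change of 2.06 (SE 0.0715, adjusted p = 7.29e-15 from edgeR). The difference for H1-3 exceeded those for H1-2 and H1-4 by more than their standard errors, a comparison that was not tested, and every RBFOX1 library lay above every GFP library for all of them. H1-6 (ENSG00000187475; chromosome 6, 26107412 to 26108135, a single exon), known as the testis form of H1, had 9, 2 and 4 counts in the GFP libraries, which became 47, 93 and 105 in RBFOX1 cells. That was 0.288 ± 0.113 CPM against 6.83 ± 0.652 CPM (SD, n = 3), with a fitted log2 fold change of 4.43 (SE 0.250, adjusted p = 1.11e-11 from edgeR). H1-6 thus remained a small part of linker histone mRNA in RBFOX1 cells. H1-1, with GFP counts of 1, 0 and 1 and RBFOX1 counts of 1, 3 and 2, was too low to test.

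**Figure D2:**
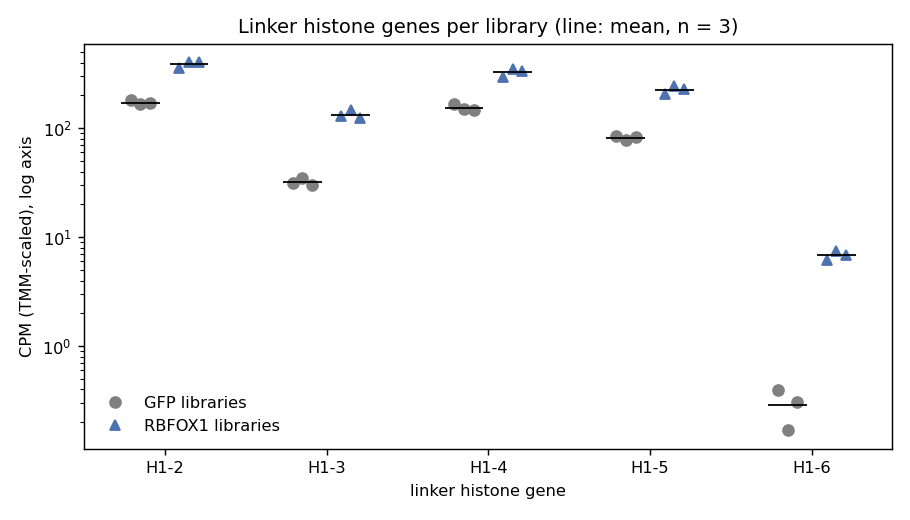
CPM (TMM-scaled, log axis) of the 5 tested linker histone genes in each library, with GFP libraries as circles, RBFOX1 libraries as triangles and the mean of 3 as a line. In every gene the 3 triangles lie above the 3 circles, from 0.288 to 6.83 CPM on average for H1-6 and from 172.4 to 388 CPM for H1-2.

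Of the 15 measured H2A genes, 12 were tested and all 12 were higher, with a median log2 fold change of 0.98. H2AC6, the H2A gene with the most counts, had 221, 203 and 200 CPM in GFP and 278, 314 and 300 CPM in RBFOX1 libraries. Its groups did not overlap, yet its log2 fold change of 0.52 (SE 0.0545, adjusted p = 1.26e-07 from edgeR) was the smallest in the class. H2AC8, next in counts, went from 75.3, 70.2 and 74.5 CPM to 130, 139 and 145 CPM, a log2 fold change of 0.91. H2AC12 had the largest difference of the class, from 23.3, 21.2 and 21.7 CPM to 61.1, 73.7 and 70.3 CPM, a log2 fold change of 1.63 (SE 0.0767, adjusted p = 6.73e-13 from edgeR).

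Of the 18 measured H2B genes, 17 were tested and all 17 were higher, with a median log2 fold change of 1.20. H2BC5 had 150, 142 and 148 CPM in GFP and 182, 216 and 213 CPM in RBFOX1 libraries, a log2 fold change of 0.48 (SE 0.0595). H2BC4 had 112, 109 and 106 CPM against 118, 166 and 158 CPM, and its log2 fold change of 0.44 (SE 0.0833, adjusted p = 1.86e-04 from edgeR) was the smallest in the class. RBFOX1 replicate 1 lay close to the GFP libraries for H2BC4, and the other two lay well above. At the other end, H2BC14 went from 44, 25 and 23 counts to 87, 141 and 134 counts in libraries of unequal depth. In CPM that was 1.92 ± 0.179 against 10.5 ± 1.45 (SD, n = 3), a log2 fold change of 2.42 (SE 0.162, adjusted p = 1.59e-10 from edgeR).

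H3 genes had the largest class median of the core histones, 1.58 on the log2 fold change scale, and all 10 tested of 11 measured were higher. H3C7, which had the most counts, went from 39.1, 37.9 and 37.0 CPM to 94.98, 109 and 105 CPM, a log2 fold change of 1.44 (SE 0.0635). H3C11 went from 24.5, 26.3 and 26.4 CPM to 70.6, 81.8 and 71.6 CPM, a log2 fold change of 1.55. For both genes the lowest RBFOX1 library was more than 2 times the highest GFP library. H3C12 had the largest difference among the well-counted H3 genes, from 8.40, 8.92 and 6.98 CPM to 29.1, 39.7 and 32.3 CPM, a log2 fold change of 2.07 (SE 0.116). H3C6 had the smallest, 0.90 (SE 0.0716), from 24.2, 21.9 and 22.9 CPM to 43.4, 44.6 and 41.96 CPM. H3C8, chosen after its values were seen, had GFP counts of 3, 0 and 1 and RBFOX1 counts of 20, 16 and 29 and was at least 9.49-fold higher when set against 3 counts in each GFP library.

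H4 genes had the smallest class median, a log2 fold change of 0.84 (0.81 with H4C6 at its bound), and held both tested genes that were not called. H4C8, with the most counts of the class, went from 84.4, 81.8 and 88.4 CPM to 134, 157 and 153 CPM, a log2 fold change of 0.81 (SE 0.0603). H4C3 went from 79.4, 71.7 and 73.2 CPM to 136, 158 and 152 CPM, a log2 fold change of 0.99 (SE 0.0613). Groups did not overlap for either gene. H4C1 had the largest difference among the well-counted H4 genes, a log2 fold change of 1.36 (SE 0.0832), from 18.5, 20.9 and 17.5 CPM to 44.4, 52.7 and 47.8 CPM. H4C5 had the smallest called, 0.47 (SE 0.0657, adjusted p = 5.40e-06 from edgeR), from 53.7, 55.3 and 57.0 CPM to 68.9, 82.4 and 77.0 CPM.

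The H4 genes that were not called had few reads. H4C11 had GFP counts of 65, 23 and 26 and RBFOX1 counts of 19, 34 and 38, with overlapping CPM, and its log2 fold change was 0.13 (SE 0.213, adjusted p = 0.686 from edgeR). H4C9 had 19, 6 and 8 counts against 7, 16 and 15 counts. In CPM that was 0.831, 0.505 and 0.607 against 0.915, 1.28 and 0.987, so its groups did not overlap, and its log2 fold change of 0.65 (SE 0.338, adjusted p = 0.130 from edgeR) did not pass the test. H4C6, chosen with these 2 after values were seen, had 0 counts in every GFP library and 5, 0 and 5 counts in the RBFOX1 libraries. It was called by edgeR (adjusted p = 0.0111), but neither by DESeq2 nor by limma-voom, and was at least 1.61-fold higher against 3 counts per GFP library, a limit that covers counting error only.

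The make-up of histone mRNA differed between the conditions as well. H1 genes held 19.6, 19.7 and 19.5% of histone counts in the GFP libraries and 23.3, 23.4 and 23.6% in the RBFOX1 libraries. H3 genes went from 6.06, 6.21 and 5.94% to 8.63, 8.60 and 8.27%. The share of H4 genes was 17.3, 18.3 and 17.7% in GFP and 15.2, 15.5 and 15.4% in RBFOX1 libraries. H2A genes had 22.4, 21.4 and 21.7% against 20.2, 20 and 20.2%, and H2B genes 34.6, 34.4 and 35.2% against 32.7, 32.5 and 32.6%. None of the 5 shares overlapped between conditions, although they sum to a whole and so are not independent, and an exact permutation test of 3 against 3 libraries cannot give a two-sided p below 0.10. In summed CPM, H3 genes went from 137 ± 5.53 to 392 ± 27.2, H1 genes from 442 ± 17.9 to 1081 ± 78.6 and H4 genes from 399 ± 7.34 to 710 ± 56.5 (SD, n = 3), ratios of 2.87, 2.45 and 1.78. H2B and H2A genes lay between them, with ratios of 1.93 and 1.89.

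**Figure D3:**
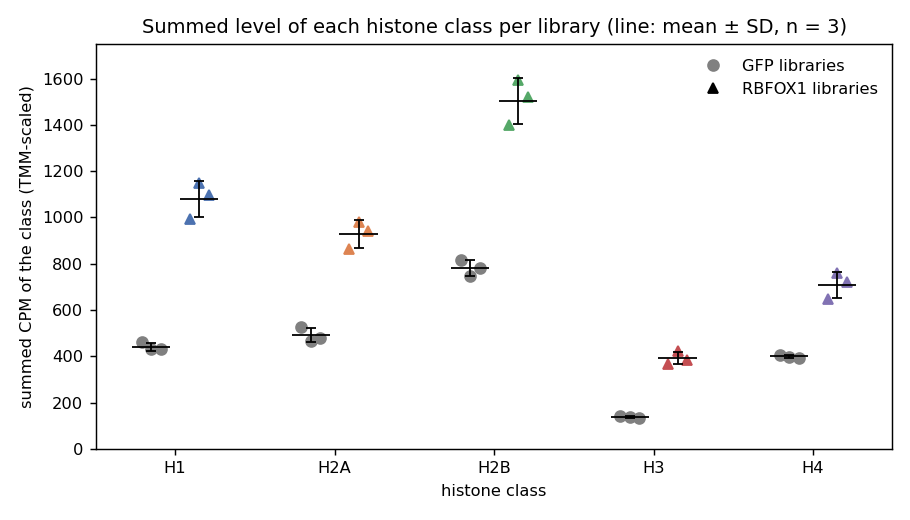
Summed CPM (TMM-scaled) of the measured genes of each histone class in each library, with GFP libraries as circles, RBFOX1 libraries as triangles, and the mean and SD of 3 libraries as lines. RBFOX1 libraries lie above GFP libraries in all 5 classes, with the highest ratio of means in H3 (2.87) and the lowest in H4 (1.78).

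The genes lie in a large cluster on chromosome 6 and smaller clusters on chromosome 1. Cluster 1, on chromosome 6 between 25723397 and 27893891, held 53 of the measured genes. Of these, 46 were tested and 44 were higher, with a median log2 fold change of 1.20. Split at gaps over 0.5 Mb, its first part had 26 of 26 tested genes higher (median log2 fold change 1.15), its second part 4 of 5 (1.31) and the last part 14 of 15 (1.37). In summed CPM the 3 parts rose from 1523 ± 50.7 to 2897 ± 220, from 221 ± 18.8 to 459 ± 21.3 and from 270 ± 9.47 to 720 ± 55.3 (SD, n = 3), ratios of 1.90, 2.08 and 2.67. Classes are spread unevenly over the parts. Between the first and the last part, the class median went from 0.91 to 1.18 in H2A, from 1.16 to 1.40 in H2B and from 1.48 to 1.61 in H3 but from 0.84 to 0.69 in H4, each over 3 to 8 tested genes, and H1 had a single gene in the last part. For H4, the last part holds H4C13 (1.15) and the near-identical low-count genes H4C11 (0.13, not called) and H4C12 (0.69). The H4 median of the first part includes H4C6, which had 0 counts in every GFP library. The differences between parts were not tested.

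Cluster 2, on chromosome 1 between 149782689 and 149887965, had 9 measured genes, all higher, with a median log2 fold change of 1.37. Its best-counted members were H2BC21, which went from 86.4, 84.0 and 91.7 CPM to 199, 209 and 192 CPM (log2 fold change 1.19, SE 0.0537), and H2BC18, from 50.1, 44.7 and 47.4 CPM to 119, 129 and 128 CPM (log2 fold change 1.40, SE 0.0599). H3C13 had the largest difference of the cluster, from 10.1, 9.17 and 8.95 CPM to 35.0, 38.5 and 36.1 CPM, a log2 fold change of 1.95 (SE 0.0862, adjusted p = 2.71e-13 from edgeR). H2AC20, with a log2 fold change of 0.88 (SE 0.0826), and H2AC21, with 0.83 (SE 0.0726), had the smallest. This order of H3 above H2A was that of the class medians.

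The remaining cluster 2 genes form duplicated copies. H3C14 and H3C15 had log2 fold changes of 1.503 (SE 0.260) and 1.92 (SE 0.225), and H4C14 and H4C15 of 1.36 (SE 0.278) and 1.37 (SE 0.240). The canonical transcripts of each pair are identical over the aligned length (100%), so their reads could be split between copies or dropped for low mapping quality. For H4C14 and H4C15 the canonical transcript has 396 bases of an exonic length of 1878, and the rest was not compared. The counts of all these copies, 7 to 27 in GFP and 16 to 67 in RBFOX1 libraries, are uncertain for the single copy. In cluster 1, H4C11 and H4C12 share 99.2% of their sequence, and the H4C12 log2 fold change of 0.69 (SE 0.179, adjusted p = 0.00340 from edgeR) is uncertain in the same way. Without near-identical genes, 50 of 51 tested histone genes were higher.

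Cluster 3, on chromosome 1 between 228434777 and 228463104, holds the divergent genes H2AC25 and H2BC26. H2AC25 went from 7.26, 4.63 and 6.75 CPM to 12.02, 11.8 and 10.8 CPM (log2 fold change 0.84, SE 0.138). H2BC26 went from 6.996, 5.22 and 6.37 CPM to 14.1, 16.4 and 14.1 CPM (log2 fold change 1.24, SE 0.121). Both were called and neither overlapped between conditions, and in GFP replicate 2 both lay below the other libraries.

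**Figure D4:**
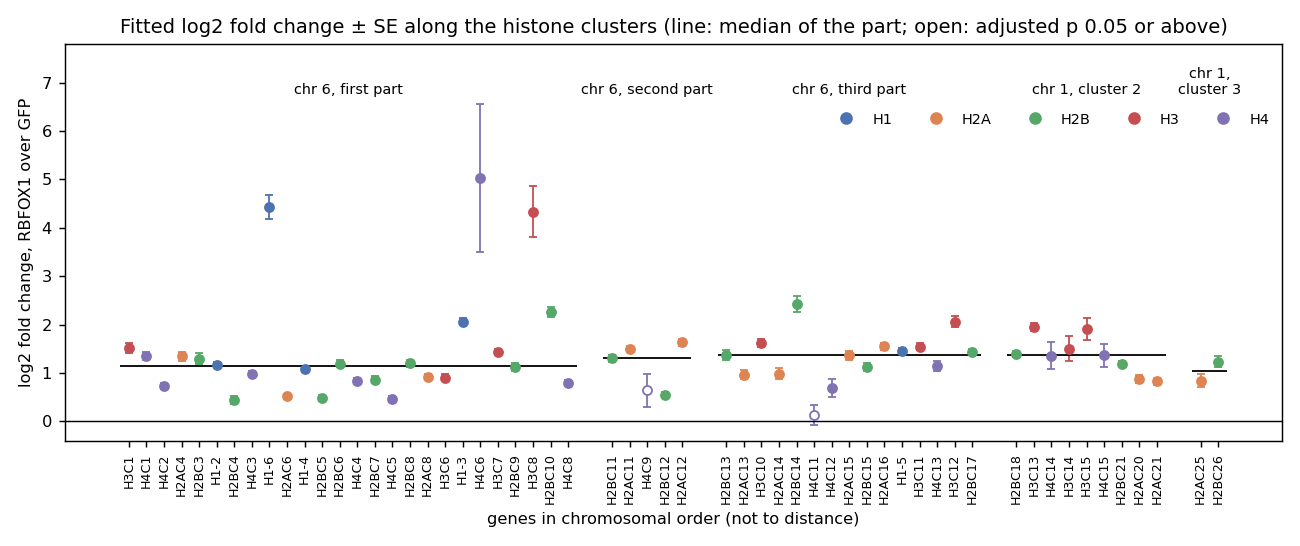
Fitted log2 fold change with its standard error for the 57 tested genes in chromosomal order, coloured by class, with the median of each part as a line and open symbols for genes with an adjusted p of 0.05 or above. Medians were 1.15, 1.31 and 1.37 in the 3 parts on chromosome 6 and 1.37 and 1.04 in clusters 2 and 3, and single genes of different classes scatter around them within each part.

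Many H2A and H2B genes stand head to head and share the sequence between their start sites. Of 12 such pairs, with start sites 170 to 251 bp apart, 9 had both genes tested. Across these 9 pairs the log2 fold changes of the partners had a Pearson's r of 0.0067 and a Spearman's rho of -0.0167, a description over few points that share the same 6 libraries. The H2A gene had the larger difference in 4 pairs and the H2B gene in 5, and in 6 pairs the partners differed by more than 2 standard errors of the difference.

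In the widest gap, H2AC14 went from 10.7, 9.93 and 10.3 CPM to 17.4, 23.8 and 19.9 CPM, a log2 fold change of 0.99, and its partner H2BC14 had the 2.42 given above. In the pair of H2AC12 and H2BC12 the order was the opposite, 1.63 for the H2A and 0.55 for the H2B gene. H2BC12 went from 126, 103 and 117 CPM to 169, 166 and 173 CPM. H2AC6 and H2BC4 had the closest values, 0.52 and 0.44. H2AC14, H2BC12 and the pairs were picked out after their values were seen.

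**Figure D5:**
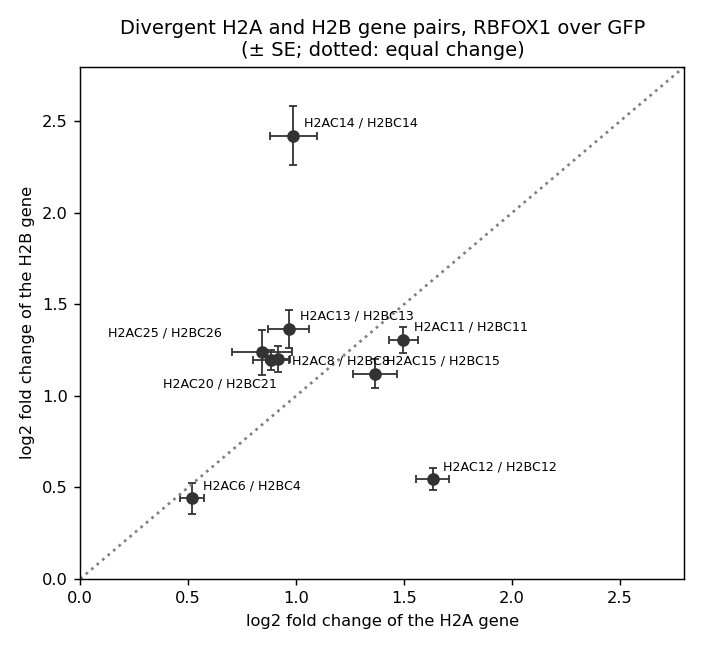
Fitted log2 fold change of the H2A gene (horizontal axis) and of its head-to-head H2B neighbour (vertical axis) for the 9 pairs with both genes tested, with standard errors and a dotted line of equal change. H2AC14 with H2BC14 lies far above the line (0.99 and 2.42) and H2AC12 with H2BC12 far below it (1.63 and 0.55).

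Annotated transcript form and promoter letters are shared features that the choice of genes did not use. Genes with a transcript over 1000 nucleotides or with an intron, which can extend past the stem-loop, numbered 17, of which 16 were tested and all 16 were higher, with a median log2 fold change of 1.19. Of the 47 measured genes with only short single-exon transcripts, 41 were tested and 39 were higher, with a median of 1.35. Within classes the order of these medians was not constant. Long or spliced genes had the lower median in H2A (0.68 against 1.17) and H2B (1.19 against 1.30). They had the higher median in H3 (1.61 against 1.55) and H4 (1.36 against 0.79). Each median covers 2 to 10 tested genes. The long or spliced H4 genes tested were H4C8 (0.81) and the uncertain low-count copies H4C14 (1.36) and H4C15 (1.37), which set that median. The short H4 median was 0.71 with H4C6 at its bound. Summed CPM went from 872 ± 28.0 to 1577 ± 113 in the long or spliced group and from 1379 ± 62.7 to 3038 ± 206 in the short group (SD, n = 3), ratios of 1.81 and 2.20. The share of histone counts on short single-exon genes was 61.6, 61.1 and 61.1% in GFP and 65.9, 65.7 and 65.9% in RBFOX1 libraries. H2AC6, H2BC4 and H2BC5, with small differences, belong to the long or spliced group, but so does H3C12 with one of 2.07. H3C12 is in the group for its intron, and its annotation ends 5 bases past the stem-loop.

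RefSeq promoters on GRCh38.p14, from 250 bases before to 50 after the start, were matched for 63 of the 68 genes and searched on both strands. TATAAA, the letters of the TATA box, was in 66.7% of the histone promoters and in 14.0% of all 27305. CCAAT was in 85.7% against 39.7%, in every H1, H2A, H2B and H3 promoter and in 3 of 12 H4 promoters. ATTTGCAT, the octamer known from H2B promoters, was in 14 of 18 H2B and 11 of 16 H2A promoters, whose head-to-head windows overlap, and in 2.19% of all. AAACACA, an element of H1 promoters, was in 6 of 6 H1 promoters against 6.94% of all, and GGTCCG, from the H4 subtype element, in 11 of 12 H4 promoters against 13.4%. A match to such short letters is a description and not a binding site.

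Not every histone gene could be measured. H2AC1 and H2BC1, known from testis, had 0 counts in every library but 1, in which H2BC1 had 1 count. H4C7 and H2AC17 likewise had at most 1 count in any library. H2AC7 and H3C4 are listed at 0 throughout, and their exons overlap another annotated gene on the same strand in GENCODE release 44, over 435 and 486 bases, as do 346 bases of H2AC17 with H3C12. Whether such overlap removed reads was not tested. H2AC18, H2AC19, H3C2 and H3C3 were not analysed here.

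Factors that act on histone genes and their mRNAs had small differences in most cases. Of 24 genes for histone transcription and 3′ end processing, 14 were higher and 2 were lower, with a median log2 fold change of 0.20. Among all genes tested, 23.7% were higher and 22.9% lower. NPAT, the coactivator of histone transcription, had 29.8, 28.1 and 27.2 CPM in GFP and 26.1, 25.9 and 24.5 CPM in RBFOX1 libraries (log2 fold change -0.16, adjusted p = 0.0832 from edgeR). CASP8AP2, a component, like NPAT, of the nuclear bodies at histone genes, had a log2 fold change of 0.16 (adjusted p = 0.0783 from edgeR). HINFP, which activates H4 genes, had one of 0.18 (adjusted p = 0.162 from edgeR). None of these 3 passed the test.

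SLBP, which binds the stem-loops printed above, went from 70.3, 63.7 and 71.1 CPM to 74.7, 83.4 and 75.0 CPM, a small rise of 0.18 on the log2 scale (SE 0.0632, adjusted p = 0.0216 from edgeR). LSM11, a U7 snRNP protein needed to cut histone pre-mRNA, rose by 1.67 on the log2 scale (SE 0.0714), from 18.3, 17.7 and 17.5 CPM to 53.3, 57.8 and 58.7 CPM. Its partner LSM10 did not pass the test, with a log2 fold change of 0.06 (adjusted p = 0.785 from edgeR). ZNF473, another 3′ processing factor, rose by 0.38, and ERI1, an exonuclease that trims histone mRNA, had a log2 fold change of 0.04 (adjusted p = 0.570 from edgeR). Of the genes that fell, named after their values were seen, TUT7, a uridylyltransferase, fell by 1.49 on the log2 scale and CSTF2, a 3′ end cleavage factor, by 0.43.

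The replication-independent histone variants, which are made outside S phase as well, did not all change in the same direction. Of 11 measured, 10 were tested, 5 were higher and 1 was lower, with a median log2 fold change of 0.32. Of all genes tested, 46.6% were called, 23.7% higher and 22.9% lower. The number called here is near that background, and most of those called were higher. CENPA, the centromeric H3, rose by 1.25, H2AX, which marks DNA breaks when phosphorylated, by 0.88, and H2AZ2 by 0.74. MACROH2A1 fell by 0.24. All are on the log2 scale. H2AJ is listed at 0 in every library. Of 3 further histone genes that were not chosen, only H2BC12L could be tested, and its log2 fold change of 0.63 did not pass (adjusted p = 0.237 from edgeR).

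Of 22 histone chaperones, 15 were higher and 1 was lower, against 23.7% and 22.9% of all genes tested. Their median log2 fold change was 0.29. HJURP, the chaperone of CENPA, rose by 1.65 on the log2 scale, ASF1B, which carries new H3 and H4, by 1.27, and TONSL, which binds them on new DNA, by 0.75. UBN1, a subunit of the HIRA complex, fell by 0.33.

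Most genes of the cell cycle lists were also higher. Of 43 S phase genes, 38 were higher and 1 was lower, with a median log2 fold change of 0.79. PCNA, the replication clamp, was the exception, with 139, 136 and 132 CPM in GFP and 116, 126 and 116 CPM in RBFOX1 libraries, a fall of 0.19 on the log2 scale (adjusted p = 0.00611 from edgeR). Of 54 G2/M genes, 52 were higher and 1 was lower, with a median of 1.33. The counts of both lists stand beside 23.7% higher and 22.9% lower among all genes tested. The S phase list shares SLBP, CASP8AP2 and CCNE2 with the list of histone transcription and processing genes and NASP and CHAF1B with the chaperones, and the G2/M list shares CENPA with the variants and HJURP with the chaperones. The part of these genes' change in the histone result was not tested.

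Of 5 abundant RNAs without a poly(A) tail, only 1 could be tested. This was RN7SL2, a copy of the RNA of the signal recognition particle. It went from 26533, 21139 and 19602 CPM to 12397, 12133 and 12580 CPM, a fall of 0.86 on the log2 scale. The other 4, RN7SL1 among them, are listed at 0. Whether reads that fit more than 1 copy were dropped was not tested, and 1 gene does not describe such RNAs in general. Of 7 markers of other cell types, 4 were tested, 2 were higher, PTPRC and PECAM1, and 2 were not called. Among all genes tested, 46.6% were called and 23.7% were higher, so the share of these markers called is near that background. Fitted log2 fold changes of the 4 ran from -0.90 to 2.99. The CPM summed over all 7 markers was 2.44 to 3.76 in GFP and 9.93 to 10.6 in RBFOX1 libraries, while CD3E and MOG were at 0, and the part of these markers in the histone result was not tested.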

How the data were processed

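Stranded, rRNA-depleted RNA-seq of A172 cells carrying GFP or RBFOX1 was analysed, 3 libraries each, grouped by their labels. The authors used HISAT2 for alignment (GRCh38) and HTSeq-count, set to intersection-strict, for counting on Ensembl release 87 genes, and the deposited values are unnormalized counts per gene and library. Lines for unassigned reads were left out, of which low mapping quality took 16.8 to 27.0% of read pairs. A deposited table of the authors' DESeq2 comparison holds log2 fold changes, standard errors and p-values and was not used.

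Counts were TMM-normalized and tested two-sided with edgeR 4.0.16 (R 4.3.3), glmQLFit and glmQLFTest, with no covariate. P-values were adjusted by the Benjamini-Hochberg method over the 20536 genes whose summed count reached 10 (threshold 0.05). The procedure was tested on simulated data. Folds against groups at or under 3 counts per library are bounds, which cover counting error only. DESeq2 1.42.0, limma-voom (limma 3.58.1), other scalings and filters, a replicate block, a fold minimum, omission of each library and of near-identical genes were alternatives. Symbols and coordinates came from GENCODE release 44, which matched 98.1% of identifiers. H2AC18, H2AC19, H3C2 and H3C3 had no matching identifier. Genes whose canonical transcripts had at least 95% identity over 90% of the shorter one counted as near-identical.

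Genes named by rule were all H1 genes, in each core class the 2 with the most counts and those with the largest and smallest called log2 fold change at a mean normalized count of at least 50, every tested gene of clusters 2 and 3, 8 factors of histone mRNA, and up to 3 called genes each way among variants and chaperones. The histone genes, lists and rule were chosen with earlier results of these data known. A variant of the list is not reported here.

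Same-numbered replicates were not paired, since their deviations from the group means correlated at -0.0254, 0.0151 and 0.0108. Counts of replicates differed beyond sampling noise (chi-square over degrees of freedom 1.60 to 8.23). The highest values, 8.08 and 8.23, were those of GFP replicate 1 against GFP replicates 2 and 3.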

Additional observations from a re-analysis of the deposited data

How the results depend on the processing

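In 18 alternatives, 0 histone genes were lower and no fitted log2 fold change of a tested histone gene changed sign. The number higher was 54 or 55 in most fits, 37 with a log2 fold change of at least 1, 50 of 51 without near-identical genes and 48 of 48 at a mean normalized count of at least 50. H4C6 lost its call under DESeq2 and limma-voom, and 18 genes lost theirs under the fold minimum alone. Of 162 medians over classes and clusters recomputed, 152 moved by less than 1 SD of the per-library medians in the RBFOX1 libraries. The fold minimum changes calls only, so its medians could not move. Removal of near-identical genes could not move the medians of H1, H2A, H2B and cluster 3, which have none among their tested genes. Without a filter on low counts the H1 median was 1.63 and the cluster 1 median 1.29. Without near-identical genes the cluster 2 median was 1.20. With each library left out in turn, the medians ran from 1.17 to 1.35 over all histone genes, 1.41 to 1.54 in H1, 0.90 to 1.06 in H2A, 1.16 to 1.28 in H2B, 1.55 to 1.70 in H3, 0.78 to 0.94 in H4, 1.16 to 1.25 in cluster 1, 1.30 to 1.44 in cluster 2 and 0.91 to 1.18 in cluster 3, which has 2 genes. GFP replicate 1, the deepest library, gave the upper end over all histone genes and in H2B, H3, H4, cluster 1 and cluster 3 when left out. GFP replicate 2 gave the lower end in cluster 3. Alternatives chosen after seeing the data were counts thinned to the smallest library, with a cluster 3 median of 1.17, and the minimum mean normalized count of 50, with an H1 median of 1.32 and a cluster 2 median of 1.20. The causes were not tested. With the replicate number as a block, 55 histone genes were higher, 0 were lower and the median was 1.25, and no call of a histone gene changed. Labels share only the number across conditions, so the block does not describe pairs. Precision at this depth is lowest for the genes with few counts, such as H4C9 (SE 0.338), H4C11 (SE 0.213) and H4C14 of cluster 2 (SE 0.278).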
